A study of Homo sapiens with 2 samples.

Results

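Tandem acceptors are pairs of alternative 3′ splice sites that lie so close together that choosing between them changes the start of an exon by a few bases. They were taken here as alternative acceptor events whose 2 sites lie 1 to 12 bases apart. There were 1508 distinct events of this kind in 1256 genes, 1080 in the DCRT-KO library and 955 in the WT library. They made up 16.9% of 6381 distinct acceptor events for DCRT-KO (exact 95% interval 16.01 to 17.9) and 18.2% of 5246 for WT (17.2 to 19.3). Both libraries came from AC16, an established human cell line labelled as cardiomyocytes from heart. The DCRT-KO library is from AC16 cells in which the long non-coding RNA DCRT was knocked out with CRISPR-Cas9, and the WT library is from AC16 cells labelled wild type. The labels give no count of clones or cultures, and there was 1 library of each genotype. All differences between genotypes below describe these 2 libraries and have no replicate check.

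An intron ends in AG, and the spliceosome usually joins the exon at the first suitable AG downstream of the branch point and the pyrimidine tract. U2AF binds that tract and the AG, and PTBP1, the splicing regulator named in the series title, binds pyrimidine-rich RNA as well. Where a second AG follows directly, both can be used, and the arrangement NAGNAG, where N is any base, is the best known kind. The upstream acceptor gives the longer exon, and the downstream acceptor leaves the bases between the sites in the intron. Spacings that are a multiple of 3 bases keep the reading frame of a coding exon, and other spacings shift it.

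The first set of sequences shows, among shared pairs 3 bases apart whose bases could be read before both sites and were AG, those with the most isoforms. They are shown because the base before each AG differs between them. All sequences were read from GENCODE v29 transcripts on GRCh38, run 5′ to 3′ on the transcript's strand, and begin 24 bases before the upstream acceptor. Capitals mark the AG that ends the intron at each site, and lower case bases after the last AG belong to the exon in both forms.

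EIF4A2 (chr3:186784405-186784441, plus strand): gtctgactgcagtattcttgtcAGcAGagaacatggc
SF3B2 (chr11:66067922-66067958, plus strand): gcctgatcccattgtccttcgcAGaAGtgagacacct
TCOF1 (chr5:150392681-150392717, plus strand): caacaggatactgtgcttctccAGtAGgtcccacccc
ACIN1 (chr14:23064476-23064512, minus strand): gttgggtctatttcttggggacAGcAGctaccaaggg
SUN1 (chr7:852786-852822, plus strand): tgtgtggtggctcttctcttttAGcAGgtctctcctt
EWSR1 (chr22:29291538-29291574, plus strand): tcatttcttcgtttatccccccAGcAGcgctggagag
RHOT2 (chr16:670865-670901, plus strand): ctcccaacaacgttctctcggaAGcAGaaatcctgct

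The second set shows wider pairs, because they behaved differently in most measures below. The pair in RHOT2 shifts the frame, and the others keep it.

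RHOT2, 5 bases (chr16:668329-668367, plus strand): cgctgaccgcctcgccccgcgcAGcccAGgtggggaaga
NUMB, 9 bases (chr14:73284356-73284398, minus strand): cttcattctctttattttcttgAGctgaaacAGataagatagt
SMTN, 9 bases (chr22:31095510-31095552, plus strand): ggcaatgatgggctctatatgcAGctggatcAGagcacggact
RIC8A, 12 bases (chr11:209235-209280, plus strand): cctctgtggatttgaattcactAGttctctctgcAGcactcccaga
EIF4G2, 12 bases (chr11:10801753-10801798, minus strand): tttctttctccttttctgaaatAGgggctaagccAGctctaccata

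A distance of 3 bases was by far the most frequent in both libraries. DCRT-KO had 452 such pairs of 1080, or 41.9% (38.9 to 44.9). WT had 426 of 955, or 44.6% (41.4 to 47.8). The next most frequent distance was 9 bases, with 12.04% in the knockout list and 12.1% in the WT list, followed by 12 bases with 9.54% in DCRT-KO and by 4 bases with 9.21% in WT. Few pairs lay 1 or 2 bases apart, 15 for each library, or 7 bases apart, 19 for DCRT-KO and 17 for WT. The intervals of DCRT-KO and WT overlapped at every distance.

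**Figure D1:**
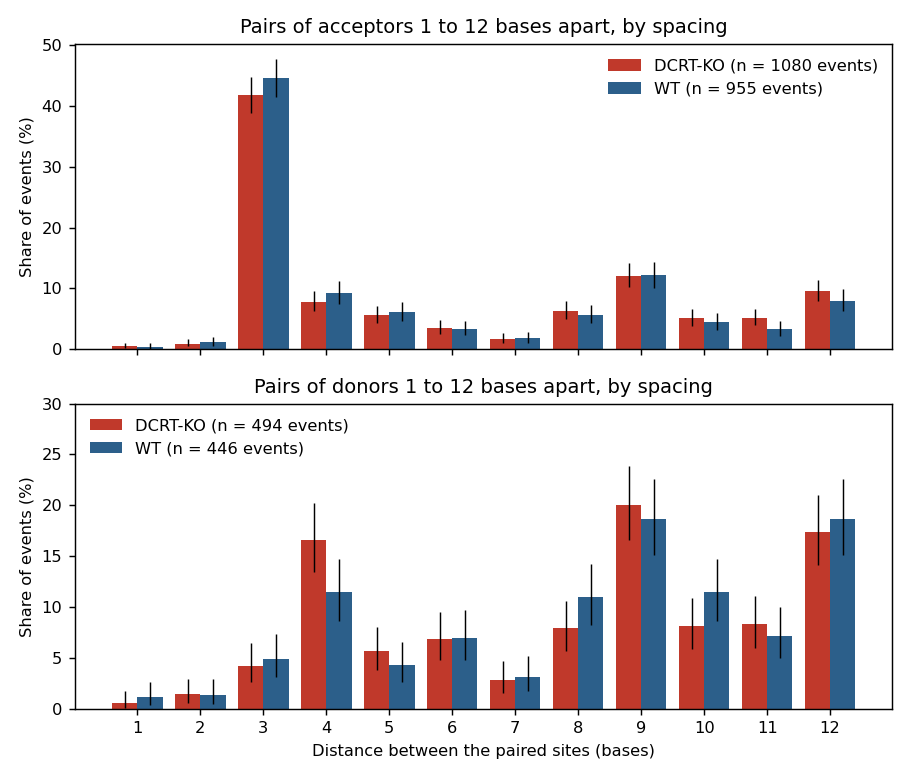
Share of events (%) at each distance between the paired sites, in bases, for acceptor pairs (upper panel) and donor pairs (lower panel). Bars are DCRT-KO and WT, lines are exact 95% intervals, and the peak of acceptors at 3 bases (41.9% and 44.6%) has no counterpart among donors (4.25% and 4.93%).

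Alternative donors, the sites at the start of an intron, did not share this peak. Among donor pairs 1 to 12 bases apart, 3 bases separated 4.25% of 494 pairs for DCRT-KO (2.65 to 6.42) and 4.93% of 446 pairs for WT (3.12 to 7.37). Donors peaked at 9 bases (20.04% in DCRT-KO) and at 9 and 12 bases (18.6% each in WT). A distance of 4 bases, which shifts the frame, separated a further 16.6% of donor pairs in DCRT-KO and 11.4% in WT. Distances of 9 and 12 bases were therefore raised at both kinds of site, and 3 bases at acceptors. The spacing was a multiple of 3 in 66.9% of DCRT-KO tandem acceptors (64.0 to 69.7) and 68.1% in WT (65.0 to 71.0), against 48.6% and 49.1% of such donor pairs. For acceptors over 12 bases apart the share was 41.9% and 43.7%.

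Pairs 3 bases apart were nearly all known to the annotation, and wide pairs mostly were not. Both sites were annotated acceptors in 94.7% of DCRT-KO events 3 bases apart (92.2 to 96.6) and 95.1% in WT (92.6 to 96.9). For 4 or 5 bases the share was 85.4% and 89.7%. For 6, 9 or 12 bases it was 26.6% (21.4 to 32.2) and 29.02% (23.2 to 35.4), and for 7, 8, 10 or 11 bases 21.7% and 21.5%. Wide pairs thus stood below acceptors over 12 bases apart, of which 40.8% (39.4 to 42.1) and 41.4% (39.9 to 42.9) had both sites annotated. In most wide pairs 1 site was annotated and the other was not. Among events 6, 9 or 12 bases apart the unannotated site was the downstream one for 28.4% (DCRT-KO) and 33.9% (WT) and the upstream one in 37.6% and 25.9%.

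**Figure D2:**
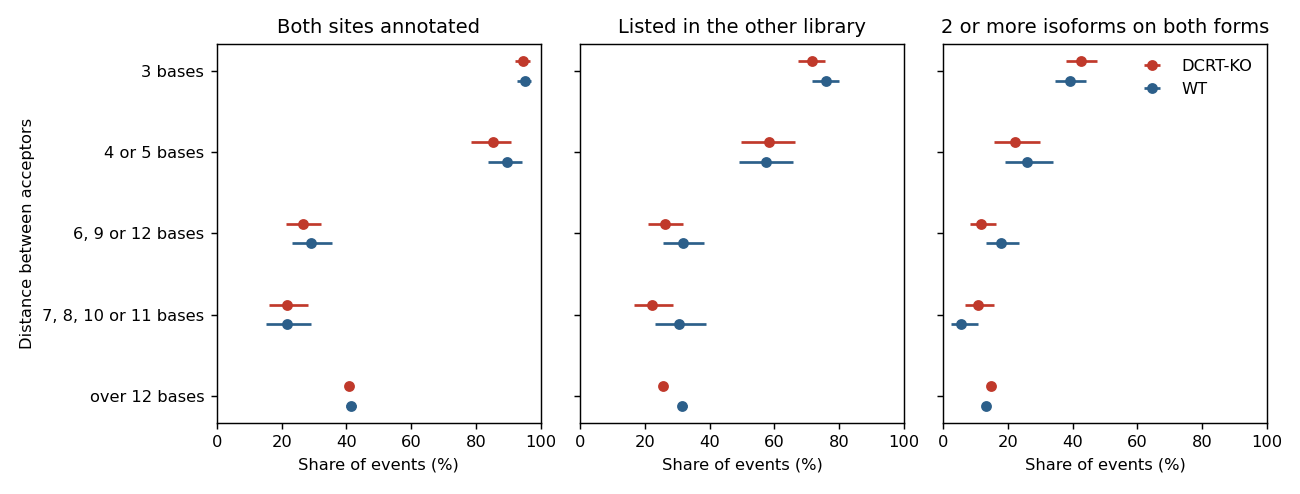
Share of acceptor events (%) with both sites annotated, with an identical event in the other library, and with at least 2 library isoforms on both forms, by distance between the sites. Points are DCRT-KO and WT with exact 95% intervals; pairs 3 bases apart lie highest in all panels, with 94.7% and 95.1% annotated and 71.7% and 76.1% found in the other library.

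Events 3 bases apart were listed in both libraries more often than other acceptor events, with forms supplied by annotated transcripts counted. An event with the same chromosome and positions was listed in WT for 48.8% of DCRT-KO tandem acceptors (45.8 to 51.8) and in DCRT-KO for 55.2% of WT tandem acceptors (52.0 to 58.4). Over all acceptor events these shares were 29.5% and 35.8%. At 3 bases they were 71.7% (67.3 to 75.8) and 76.1% (71.7 to 80.03), and at 4 or 5 bases 58.3% and 57.5%. At 6, 9 or 12 bases they were 26.2% (21.1 to 31.9) and 31.7% (25.7 to 38.2), and at 7, 8, 10 or 11 bases 22.2% and 30.6%.

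Overlap also moved with annotation and with the number of isoforms behind an event. It was 66.9% in DCRT-KO and 70.8% in WT where both sites were annotated, 19.9% and 26.6% where 1 was, and 8.93% in each where neither was. It was 41.5% of DCRT-KO events with fewer than 5 library isoforms and 60.1% of those with 10 or more, and 44.1% and 70.2% in WT. An annotated transcript can supply a form that the library lacks, which adds annotated events to both lists. Of the 527 events in both lists, 367 had library isoforms on both forms in both libraries. By that stricter count 41.1% of DCRT-KO and 48.2% of WT events with library isoforms on both forms were shared.

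Support by at least 1 library isoform on each form was less frequent at 3 bases, with 80.5% for DCRT-KO and 74.2% for WT, than at 6, 9 or 12 bases, with 89.7% and 91.5%. In the remaining pairs a form had no library isoform. Support by more than a single isoform was more frequent at 3 bases. At least 2 library isoforms carried each form in 42.7% of DCRT-KO events 3 bases apart (38.1 to 47.4) and 39.2% in WT (34.5 to 44.0). At 6, 9 or 12 bases the share was 11.8% (8.22 to 16.3) and 17.9% (13.1 to 23.5). The less used form rested on exactly 1 isoform for 77.9% (DCRT-KO) and 73.7% (WT) of the pairs at those distances, near the 74.2% and 73.5% of acceptors over 12 bases apart.

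Where the bases could be read, pairs 3 bases apart had the AG of an acceptor at both sites. The bases before the downstream site were AG at 444 of 448 pairs for DCRT-KO (99.1%) and at 418 of 421 for WT (99.3%). Before both sites they were AG at 136 of 140 readable pairs for DCRT-KO (97.1%, 92.8 to 99.2) and 139 of 142 for WT (97.9%, 93.95 to 99.6). At 6, 9 or 12 bases both were AG at 54 of 93 pairs for DCRT-KO (58.1%, 47.4 to 68.2) and 62 of 102 for WT (60.8%, 50.6 to 70.3). At 7, 8, 10 or 11 bases they were AG in 56 of 82 (68.3%) and 32 of 53 (60.4%). Bases before the upstream site were read at 385 of 1080 pairs for DCRT-KO and 364 of 955 for WT, where another annotated exon spans the end of the intron. These events need not stand for the others.

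The 3 bases between the sites, which are in the exon when the upstream acceptor is used, were most often CAG. Over both lists CAG stood in 385 of 547 events that could be read (70.4%, 66.4 to 74.2). The bases were AAG in 89 events (16.3%, 13.3 to 19.6), and TAG in 54 events (9.87%, 7.50 to 12.7). GAG was found in 14 events (2.56%, 1.41 to 4.26). In the separate lists CAG made up 69.4% for DCRT-KO and 73.2% for WT.

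Most tandem acceptors lay in coding sequence. Of events with an annotated site, 87.2% for DCRT-KO (85.01 to 89.2) and 85.8% for WT (83.3 to 87.98) started a coding exon or part of one. A further 11.4% and 12.8% lay in the 5′ untranslated region, and the 3′ untranslated region held 3 pairs for DCRT-KO and 1 for WT. Acceptors over 12 bases apart were similar, with 86.3% (DCRT-KO) and 84.3% (WT) in coding sequence. Of these wider events 9.77% and 12.02% lay in the 5′ untranslated region. Frame-keeping distances were more frequent in coding sequence, with 70.9% for DCRT-KO (67.8 to 73.8) and 73.02% for WT (69.7 to 76.1). In the 5′ untranslated region they made up 49.6% (40.2 to 59.0) and 47.0% (37.6 to 56.5). Pairs 3 bases apart alone were closer, with 44.8% of coding and 37.6% of 5′ untranslated events in DCRT-KO, whose intervals overlapped. Pairs 4 or 5 bases apart, which shift the frame, lay in the 5′ untranslated region at 21.6% for DCRT-KO (15.1 to 29.4) and 25.3% for WT (18.5 to 33.2).

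Coding pairs 3 bases apart lay mostly at introns that split a codon, with no phase shares of other acceptors set beside them. Phase 0 introns, which fall between codons, held 35.8% for DCRT-KO and 34.2% for WT. Phase 1 introns, which fall after the first base of a codon, held 43.8% and 45.2%, and phase 2 introns held 20.5% and 20.6%. At a phase 0 intron the bases TAG would be read as a stop codon when the upstream acceptor is used. Of 47 coding events with TAG in either list, 6 were at phase 0 (12.8%, 4.83 to 25.7), against 134 of 339 with CAG (39.5%, 34.3 to 44.95). The 6 events were in the metalloprotease gene ADAM15, ADAMTSL5, COPS7B, SCO1, TIMM44 and TMEM38B, of which ADAMTSL5 was listed in WT and the others in DCRT-KO. They are named because they are few, after their values were seen.

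The use of the sites was described by the downstream share, the percentage of an event's library isoforms that use the downstream acceptor. Isoforms are distinct transcript structures and not reads, so the share is no measure of RNA abundance. Among events with at least 5 library isoforms, the median share at 3 bases was 33.3% for DCRT-KO (251 events, 30 to 40) and 37.5% for WT (225 events, 30.8 to 40). The downstream acceptor held more than 50% of the isoforms at 67 of the 251 and 69 of the 225 pairs. At 4 or 5 bases the median was 16.7% in each library (13.3 to 20 in DCRT-KO and 12.5 to 20 in WT), so the upstream acceptor prevailed more.

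Both acceptors were in frequent use at 3 bases, and at wide distances either site prevailed. A downstream share between 25 and 75% 3 bases apart was found for 55.4% in the knockout list (48.997 to 61.6) and for 52% in the WT list (45.3 to 58.7). At 6, 9 or 12 bases this was 10.9% for DCRT-KO (6.70 to 16.5) and 21.5% for WT (14.8 to 29.6), and over 12 bases 14.4% and 16%. The interval of DCRT-KO at 6, 9 or 12 bases overlapped that of WT. In an event with at least 5 isoforms, a form carried by 1 isoform cannot reach 25%. Over all events 3 bases apart, the less used form had exactly 1 isoform in 37.8% for DCRT-KO and 35.0% for WT. The higher shares at wide distances are given above. The contrast thus partly restates that support and is not a separate result.

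**Figure D3:**
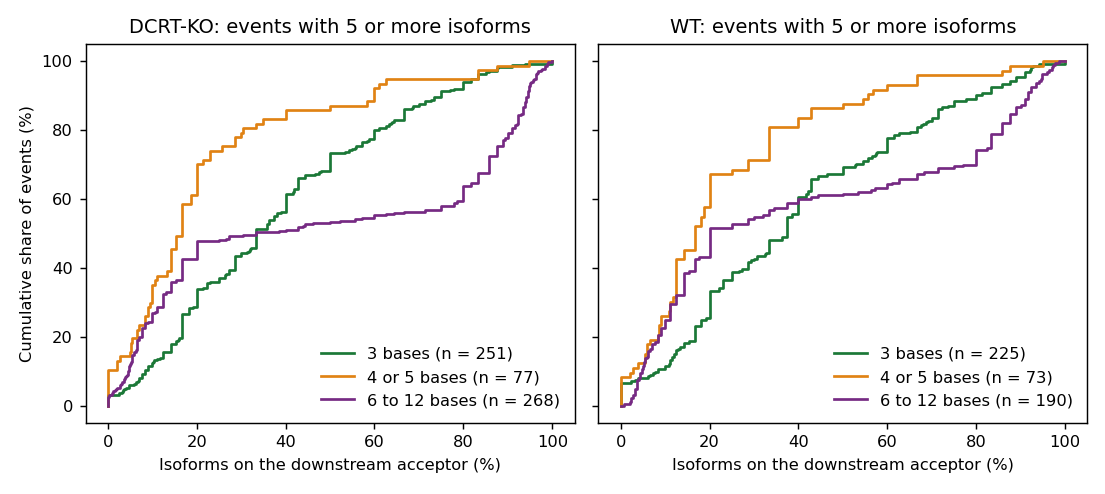
Cumulative share of tandem acceptor events (%) against the percentage of library isoforms on the downstream acceptor, for DCRT-KO (left) and WT (right), in events with at least 5 library isoforms. Lines are distances of 3, of 4 or 5 and of 6 to 12 bases. The line for 3 bases climbs steadily. That for 6 to 12 bases is flat in the middle, where few events have isoforms split between both sites.

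The base before the downstream AG went with the use of that site in both libraries. With CAG between the sites, the median downstream share was 40% for DCRT-KO (168 events, 33.3 to 42.9) and 38.5% for WT (159 events, 36.4 to 42.9). With AAG it was 16.7% in each library, over 44 events for DCRT-KO (9.09 to 28.6) and 30 for WT (6.67 to 22.2). TAG gave 27.3% for DCRT-KO (25 events, 16.7 to 36.4) and 33.0% for WT (22 events, 20 to 52.6). GAG gave 20% over 9 events and 21.5% over 10. The intervals of CAG and AAG did not overlap in either library, while those of TAG and GAG overlapped that of CAG in each.

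The base before the upstream AG could be compared in fewer events. Where the 6 bases were CAGCAG the median downstream share was 38.2% for DCRT-KO (26 events) and 38.8% for WT (28 events). TAGCAG gave 42.9% over 11 events and 40% over 12. AAGCAG gave 85.4% over 8 DCRT-KO events, from 14.3 to 100%, and 87.1% over 6 WT events, from 52.9 to 92.9%. CAGAAG, the reverse order, gave 16.2% over 6 DCRT-KO and 6.67% over 3 WT events. An A before an AG thus went with less use of that AG at either site in these few events.

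Of the pairs 3 bases apart printed above, RHOT2 lay near the medians of its 6 bases in both libraries. EIF4A2 and EWSR1 lay above the medians of their 6 bases, and ACIN1 and SUN1 lay below theirs. SF3B2 had the lowest value of its 6 bases in DCRT-KO and lay at the median in WT. EIF4A2, an RNA helicase of translation initiation, has CAGCAG, with 61 of 89 isoforms on the downstream acceptor in DCRT-KO and 25 of 37 in WT (68.5 and 67.6%). EWSR1, an RNA-binding protein of the FET family, also has CAGCAG, with 19 of 34 isoforms in DCRT-KO and 15 of 26 in WT (55.9 and 57.7%). SF3B2, a subunit of the U2 particle that recognises the branch point, has CAGAAG, with 2 of 64 isoforms in DCRT-KO and 3 of 45 in WT. RHOT2, a GTPase of the outer mitochondrial membrane, has AAGCAG at its later pair, with 21 of 24 and 30 of 33 isoforms on the downstream acceptor (87.5 and 90.9%).

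The other pairs of this group lay between these. TCOF1, a nucleolar protein that acts in ribosomal RNA production, has CAGTAG, with 18 of 68 isoforms downstream in DCRT-KO and 15 of 40 in WT (26.5 and 37.5%). SUN1, which links the nuclear envelope to the cytoskeleton, has TAGCAG, with 9 of 34 and 12 of 37 isoforms (26.5 and 32.4%). ACIN1, an RNA-binding protein of the splicing machinery, has CAGCAG, with 19 of 59 and 6 of 30 isoforms (32.2 and 20%). These 3 genes stayed below an even split in both libraries, although ACIN1 has the same 6 bases as EIF4A2.

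The wider pairs printed above from RHOT2, NUMB and SMTN had most of their isoforms on the upstream acceptor. The first pair of RHOT2, 5 bases apart, had 8 of 31 isoforms downstream in DCRT-KO and 4 of 37 in WT (25.8 and 10.8%). NUMB, an inhibitor of Notch signalling, had 6 of 36 and 6 of 24 at a pair 9 bases apart, and SMTN, the actin-binding protein smoothelin, had 1 of 22 and 3 of 36. The downstream sites of NUMB and SMTN are not annotated in v29.

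Across the libraries the use of tandem acceptors was close for most events, and no common shift was seen over all spacings together. Of the 527 shared events, 270 had at least 5 library isoforms in each library. Their median downstream share was 32.8% in DCRT-KO and 33.3% in WT, and the median difference of an event was -0.06 percentage points (DCRT-KO minus WT), with quartiles of -8.39 and 7.34. The share was higher in DCRT-KO in 118 events, lower in 135 and equal in 17. At tandem spacings other than 3 bases it was higher in 40, lower in 52 and equal in 11. Across these 270 events, which share genes and annotation and are not replicates, Pearson's r between the libraries was 0.868 and Spearman's rho 0.847. These were lower than the 0.923 and 0.900 of acceptors over 12 bases apart. They were 0.811 and 0.801 at 3 bases and 0.926 and 0.884 at the other tandem spacings. The median absolute difference was 9.52 points at 3 bases, 4.63 at the other tandem spacings and 6.06 over 12 bases.

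A difference of over 20 percentage points was found in 42 of the 270 events (15.6%, 11.4 to 20.4), against 12.3% of all 925 acceptor events of both lists with as many isoforms. The 925 include the 270 tandem acceptors. Of the 655 events over 12 bases apart 10.99% differed by as much (8.70 to 13.6), and this interval overlapped that of tandem acceptors. The share was higher in DCRT-KO in 18 (6.67%) and lower in 24 (8.89%), against 5.73% and 6.59% over all acceptor events. These pooled values lie near the background, but the spacings differed in direction. At 3 bases the share was over 20 points higher in DCRT-KO in 15 events and lower in 13. At the other tandem spacings it was higher in 3 and lower in 11, so these differences lay mostly on 1 side. Over 12 bases it was higher in 35 and lower in 37. The one-sided part rests on few events, and its cause was not tested. Among the 270 tandem acceptors, differences of over 20 points were most frequent where few isoforms stood behind an event. They were found in 32 of 144 events with 5 to 9 isoforms in the poorer library, 7 of 81 with 10 to 19 and 3 of 45 with 20 or more. The exact intervals of DCRT-KO and WT were apart in 0 of the 270 events and in 0% of all 925, which at these isoform numbers does not show that use was equal.

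**Figure D4:**
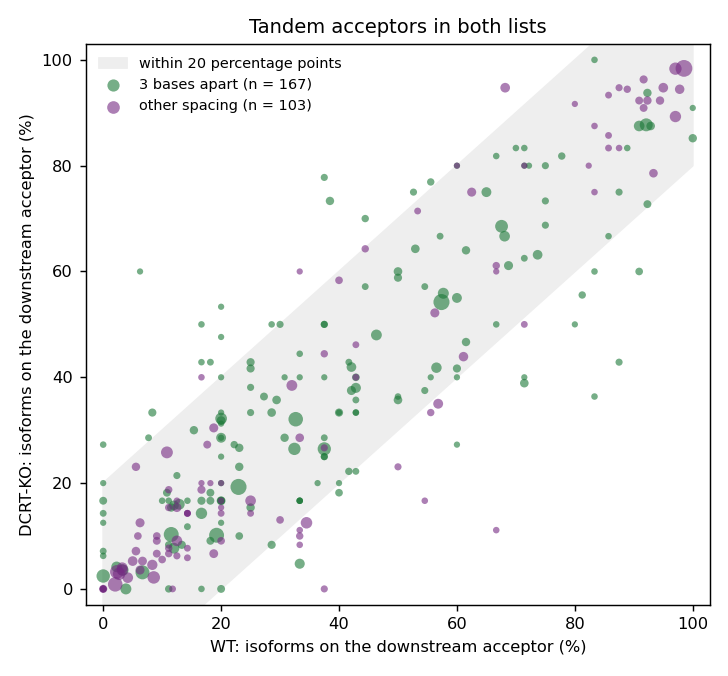
Percentage of library isoforms on the downstream acceptor in DCRT-KO (vertical) against WT (horizontal) for 270 tandem acceptors of both lists with at least 5 isoforms in each. Point area grows with the isoforms of the poorer library and the grey band marks differences within 20 percentage points; 42 events lie outside the band, 3 of them with 20 or more isoforms in the poorer library.

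The events with the largest differences rested on few isoforms. The pair of LIMA1, an actin-binding protein, had 3 of 5 isoforms on the downstream acceptor in DCRT-KO and 1 of 16 in WT, a difference of 53.8 points. IP6K2, an inositol phosphate kinase, had 7 of 9 and 3 of 8 isoforms there (40.3 points). PRKAG2, a regulatory subunit of the AMP-activated kinase, had 8 of 15 and 1 of 5, and CHTOP, a protein of messenger RNA export, 3 of 6 and 1 of 6 (33.3 points each).

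In the other direction BANP, a DNA-binding nuclear protein, had 1 of 9 isoforms downstream in DCRT-KO and 4 of 6 in WT at a pair 9 bases apart (-55.6 points). SAFB, a nuclear matrix and RNA-binding protein, had 8 of 22 and 5 of 6 (-47.0 points). PIP5K1A, a lipid kinase, had 6 of 14 and 7 of 8 (-44.6 points). SLC26A6, an anion exchanger, had 1 of 6 and 6 of 11 at a pair 4 bases apart, and ZDHHC6, a palmitoyl transferase, 0 of 11 and 3 of 8 at a pair 12 bases apart. The intervals of DCRT-KO and WT overlapped at each of these pairs. The sequences of some of these pairs are shown because they carry the largest differences; at BANP the bases before the upstream site are not AG.

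LIMA1 (chr12:50182025-50182061, minus strand): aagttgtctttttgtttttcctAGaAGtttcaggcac
IP6K2 (chr3:48695409-48695445, minus strand): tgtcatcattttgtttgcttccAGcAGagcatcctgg
BANP (chr16:88035299-88035341, plus strand): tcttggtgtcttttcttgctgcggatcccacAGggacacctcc
SAFB (chr19:5661494-5661530, plus strand): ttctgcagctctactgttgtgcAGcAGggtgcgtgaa

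**Figure D5:**
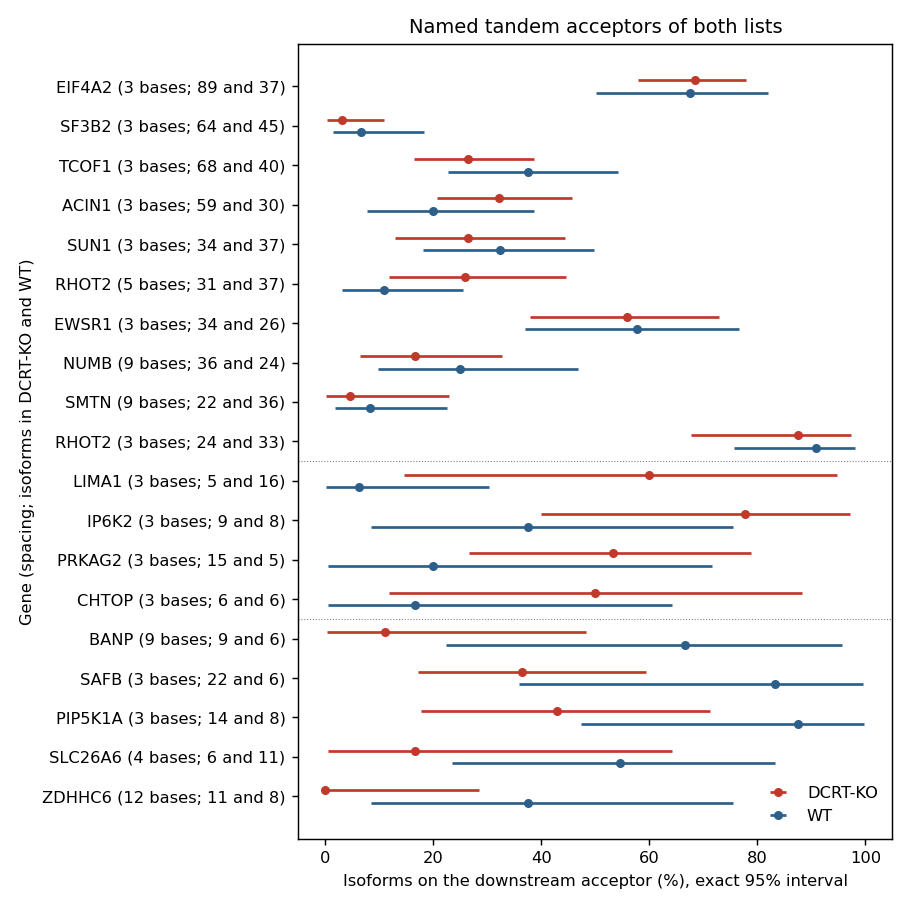
Percentage of library isoforms on the downstream acceptor, with exact 95% intervals, for named events of both lists in DCRT-KO and WT; labels give the spacing and the isoforms in each library. The upper block holds the events with most isoforms among those with AG read before both sites, such as EIF4A2 at 68.5 and 67.6%, and the lower blocks those with the largest differences each way, whose intervals are wide and overlap.

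Events listed in a single library were supported by fewer isoforms, with a median of 4 in the 553 events of DCRT-KO alone and 3 in the 428 of WT alone, against 6 in each library for shared events. The 3 events of DCRT-KO alone with the most isoforms, among those with AG read before both sites, were 12 bases apart. Outside that rule PKM, at a pair 8 bases apart, had more isoforms, as given below. EEF1G also lay outside it, with 60 isoforms upstream and 1 downstream at 11 bases, more than GAPDH and RIC8A. BAG6, a chaperone for membrane proteins, had 85 isoforms on the upstream and 1 on the downstream acceptor. The glycolytic enzyme GAPDH had 50 and 1, and has many processed pseudogenes, so its isoforms are uncertain. RIC8A, a chaperone of G protein alpha subunits, had 4 and 28, and was the pair of these with both sites annotated. In WT alone, by the same rule, EIF4G2, a translation factor, had 39 isoforms upstream and 2 downstream at 12 bases. ITGA5, the fibronectin receptor subunit, had 34 and 1, and HGS, an endosomal sorting protein, 29 and 1 at 6 bases. Outside the rule FN1, given below, and ACTN1, with 44 and 1 at 2 bases, had more isoforms in WT alone.

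Tandem acceptors were spread over many genes, and the share of genes that held one was similar in most gene lists. Of 4087 genes with any acceptor event 1256 held a tandem acceptor (30.7%), 1058 of them a single one. Among the listed splicing factors, 70 had an acceptor event and 26 of these a tandem acceptor (37.1%), 23 in DCRT-KO and 20 in WT. Their 41 events included 22 pairs 3 bases apart, and 24 events were in both lists. An earlier pair of SF3B2 had 7 of 69 isoforms downstream in DCRT-KO and 10 of 52 in WT. Of the 17 splicing factor events with 5 isoforms in each library, 2 differed by over 20 points, against 42 of 270 tandem acceptors and 12.3% of all acceptor events, and the median difference was 1.44 points.

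Genes of translation and the ribosome held 41 events in 30 of 72 genes (41.7%), 28 genes in DCRT-KO and 16 in WT, and 7 of the events were 3 bases apart. EIF4G1, the scaffold of the initiation complex, had 45 of 83 isoforms downstream in DCRT-KO and 35 of 61 in WT. PABPC1, the poly(A)-binding protein, had 122 of 124 and 66 of 67 at a pair 8 bases apart. PABPC1 and ribosomal protein genes have processed pseudogenes, so their isoforms are uncertain.

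Matrix and cytoskeleton genes held 44 tandem acceptors in 19 of 60 genes, with 36 listed for WT and 13 for DCRT-KO, and 5 of them were 3 bases apart. COL1A1, a collagen chain, held 12 of them, all in WT, 0 at 3 bases and 0 with both sites annotated, and ACTB held 5 in WT and 1 in DCRT-KO, also with 0 at 3 bases. ACTB encodes an actin with close copies and pseudogenes, so its isoforms are uncertain. A pair of FN1, which encodes fibronectin, had 126 isoforms upstream and 1 downstream in WT alone. Markers of fibroblasts and matrix were listed more in WT (8 of 11 with any event, 571 events) than in DCRT-KO (3 of 11, 7 events). Smooth muscle markers had 34 events in WT, in 2 of 4 markers, and 0 in DCRT-KO. The part of these markers in the difference was not tested.

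Chromatin regulators held 17 events in 12 of 39 genes, 11 of them 3 bases apart. CHD4, a remodelling ATPase, had 4 of 22 and 2 of 11 isoforms downstream, and the histone chaperone DAXX 5 of 14 and 7 of 14. Genes of mitochondrial respiration and dynamics held 15 events in 12 of 38 genes, of which 1 was 3 bases apart. That pair was in IMMT, a core protein of the inner membrane's cristae junctions, with 3 of 8 and 6 of 11 isoforms downstream. MFN2, which fuses outer mitochondrial membranes, had 3 of 16 and 2 of 12 at a pair 4 bases apart in its 5′ untranslated region.

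Dilated cardiomyopathy genes held 3 tandem acceptors in 3 of 11 genes with an acceptor event (27.3%), near the 30.7% of all genes. ILK, integrin-linked kinase, had 20 isoforms upstream and 1 downstream at a pair 8 bases apart in DCRT-KO alone. PSEN2, a presenilin, had 3 and 1 in DCRT-KO and 3 and 0 in WT. Of 9 genes with a tandem acceptor described in the field, 4 had an acceptor event and 2 a tandem acceptor. The pair of STAT3, a transcription factor of cytokine signalling, had 5 of 12 isoforms downstream in DCRT-KO and 9 of 15 in WT. IGF1R, the receptor of insulin-like growth factor, had 3 upstream and 2 downstream in WT alone.

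The pyrimidine motif TCTT, a known binding motif of PTBP1, was about as frequent before tandem acceptors as before acceptors in general. It was searched on the transcript's strand in the 50 bases before the upstream site, with any overlap allowed, in the 482 events where all of them could be read. It was present in 195 events (40.5%, 36.04 to 44.99) and before 39.9% of 48497 annotated acceptors readable in the same way. By list it was present in 44.4% of shared events (36.5 to 52.4), 35.5% of those in DCRT-KO alone (28.3 to 43.1) and 42% of those in WT alone (34.0 to 50.3). These intervals overlap. A match is a description of the letters and not a site of binding.

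The libraries as a whole set the frame for these values. DCRT-KO named 54197 and WT 49374 library isoforms over 42783 and 35307 rows of the 5 event tables, and 8962 and 6697 of these isoforms carried a tandem acceptor. Of 12 markers of contracting cardiomyocytes, 0 had an event of any type in DCRT-KO and 2 in WT, and 0 had a tandem acceptor. Of 4 endothelial markers 0 had an event in either library. A marker without an event may still be expressed, so the event lists cannot tell the cell type. Epithelial markers held 80 events for DCRT-KO and 23 for WT, with an event in 4 of 7 markers in each library. DCRT itself has no event under that symbol in these tables, so the knockout was not checked here.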

How the data were processed

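The files held 5 tables of splicing events for each of 2 libraries. Each row pairs 2 forms of a segment and names the isoforms that carry each form. The values are positions and names as deposited, with no read counts, so depth is unknown. The aligner minimap2 and the genome build hg38 are named, without a role or order, per the submitters' processing notes. The isoform builder, the event caller and all versions are not given here. The series' design text describes PacBio long reads, while the labels' protocols describe Illumina libraries. The isoform names were read as long-read results.

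Rows of the acceptor tables with positions 1 to 12 bases apart were joined into distinct events by chromosome and position. The order of positions in a row gave the strand of all 12121 rows with an annotated gene. Isoforms of the library were counted for each site, leaving out Ensembl transcripts. A site was called annotated when it starts a later exon of a GENCODE v29 transcript (GRCh38). No genome sequence was used. Bases were read from v29 transcript sequences where an exon covers them, so they were read before the downstream site in most events and before both sites in fewer; the rules on AG use the latter.

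Shares have exact (Clopper-Pearson) 95% intervals, and medians have exact order-statistic intervals. Both cover counting error only, and treat events or isoforms as independent, although isoforms of a gene share structure. With 1 library per genotype no test was made. The functions that read events and bases recovered what was planted in simulated tables. Computations used Python 3.11.15, numpy 2.4.6, scipy 1.17.1 and matplotlib 3.10.9.

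Named events were the 10 shared events with most isoforms and AG before both sites, the 5 with the largest difference each way, the 3 of each list alone with most isoforms and AG before both sites, and the leading 2 of each of 6 gene lists plus every member of a list of described tandem acceptors. 1 named event and some sequences are not reported here. The members, lists and rules were chosen with earlier results of these data known.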

Additional observations from a re-analysis of the deposited data

How the results depend on the processing

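Requiring library isoforms on both forms, at least 1 each, gave tandem shares of acceptor events of 15.9% in DCRT-KO and 16.9% in WT, both sites annotated in 58.9% and 62.3%, and AG before both sites in 75.4% in WT. With at least 2 each, the tandem share was 26.3% in DCRT-KO and 30.7% in WT, and pairs 3 bases apart made up 69.2% and 65.7%. Spacings that are a multiple of 3 made up 80.6% and 81.5%, AG before both sites 90.9% and 90.6%, both sites annotated 85.7% and 90.9%, and events in the other library 77.8% and 83.9%. With library isoforms on both forms in both libraries, an alternative chosen after seeing the data, the last was 41.1% and 48.2%. An upper limit of 9 bases gave tandem shares of 13.6% and 15.4%, and one of 15 bases 20.8% and 21.3%. Differences of over 20 points were found in 21.5% of shared events at a minimum of 3 isoforms and 7.94% at 10, and 5.19% differed by over 30 points. TCTT was present in 57.1%, 45.9% and 53.4% of shared, DCRT-KO alone and WT alone events within 100 bases, and in 33.1% of WT alone within 30. At least 2 matches of CTCTCT or TCTT were present in 16.9%, 16.3% and 13.3%. The other 36 values under alternatives lay within the interval of the value reported. No paired analysis was possible because each genotype has 1 library, and for the same reason no replicate could be left out. Depth is unknown, and the isoform number of an event limits its share.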

Other observations

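Of the 8 pairs with the most isoforms, named after their values were seen, 4 were 8 or 9 bases apart with 1 site hardly used, and the other 4 were 3 bases apart. The glycolytic enzyme PKM had 293 isoforms on the upstream and 1 on the downstream acceptor of a pair 8 bases apart in DCRT-KO, and the pair was not in the WT list. PSMD2, a subunit of the proteasome, had 115 and 1 in DCRT-KO and 48 and 1 in WT at a pair 9 bases apart. A second pair in BAG6, 3 bases apart, had both acceptors in use, with 67 and 16 isoforms in DCRT-KO and 47 and 14 in WT.

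A site was shared with another tandem acceptor in 49 of the 1508 events, where acceptors lie in a row of more than a pair. Events formed by annotated transcripts alone, with 0 library isoforms, numbered 59 in DCRT-KO and 55 in WT.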
